A study of Macaca fascicularis with 24 samples.

Results

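The nuclear-encoded subunits of the mitochondrial respiratory chain and of ATP synthase were followed in arrays of thoracic aorta from cynomolgus macaques (Macaca fascicularis), old and young. Members were all non-control probe sets whose single annotated gene symbol belongs to the NDUF subunits, SDHA to SDHD, UQCR, COX4 to COX8 or ATP5 families, with COX7A1 left out. The rule used names alone and no measured value. It found 99 of 22215 probe sets (a probe set is the group of short probes that reads 1 transcript), which carry 66 of 11963 gene symbols. Of these, 84 probe sets of 62 genes were bright enough to be tested, that is, their mean log2 intensity over all samples reached 7.60. NDUFA5, NDUFB3, COX6A2 and the antisense transcript NDUFB2-AS1 were not tested on any probe set. Among the 62 are the inhibitor ATP5IF1 and the pseudogene ATP5MC2P1, which count toward no single complex.

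The arrays carry human probes and were read with monkey RNA, so a species mismatch can dim a probe set on every array alike. The groups were old males (mean age 20.0 years), young males (6.6 years), old females (21.2 years) and young females (7.2 years), with 6 arrays each and no other treatment named in the labels. Near-identical arrays were averaged in 3 pairs (old female 1 and 4, young male 3 and 4, young female 3 and 4), which left 6 old males, 5 young males, 5 old females and 5 young females. The labels do not say that replicates are separate animals, so p-values measure the spread between these samples, which may be technical.

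Oxidative phosphorylation passes electrons from NADH through complex I, or from succinate through complex II, to ubiquinone, then through complex III and cytochrome c to complex IV, which reduces oxygen. Complexes I, III and IV pump protons across the inner mitochondrial membrane, and complex V, the ATP synthase, lets them back to make ATP. Vascular smooth muscle, the main cell of the aortic media, draws on this chain beside glycolysis, and brown adipocytes, which can surround large vessels, are packed with mitochondria and uncouple the chain through UCP1.

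Several samples need to be known before the values. In 6 samples (old males 2 and 4, young male 1, old females 2 and 6, young female 3) the median correlation with the other samples was 0.81 to 0.83, against 0.88 to 0.93 in the other 15. They are called divergent here. Their log2 ratio of 3′ to 5′ actin control signal, which grows as RNA degrades, ran from 0.78 to 1.73, against -0.25 to 1.15 in the others, so these ranges overlap. The mean log2 signal of their hybridisation controls ran from 12.84 to 14.32, against 11.19 to 12.13 in the others, without overlap. Young male 1 also went against its label in part: XIST, the RNA of the inactive X chromosome, read 10.31 there and 6.09 to 7.15 in the other young males, while the Y-linked RPS4Y1 read 11.97, near the male level. Of the smooth muscle markers, MYH11, smooth muscle myosin, was bright throughout, at 12.84 to 15.19. Others varied more between samples. SMTN ran from 9.78 in old female 6 to 13.81 in old female 1, and CNN1 from 9.83 in young female 3 to 12.76 in old male 1. Levels below are log2(intensity + 16) after quantile normalisation, so a difference of 1 is a doubling, and each gene is read from its brightest probe set.

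Old males had higher means than young males for most of these genes, but by small amounts and with groups that overlapped for every gene read from its brightest probe set. Of 62 genes, 52 had a higher mean in old males, where 48.1% of all tested genes did, and the median log2 change was 0.26, against -0.01 over all genes. With the actin ratio as a covariate the male median was 0.32, against -0.01 over all genes. No member passed in the limma model (0 of 84 probe sets past an adjusted p of 0.05, where 0.018% of all probe sets passed). The smallest limma adjusted p among them was 0.99991. At an unadjusted limma p below 0.05, 2 genes were higher (1.61% of all genes were) and 0 lower (1.99%). The 2 were ATP5MC2 and its pseudogene ATP5MC2P1, whose probes can read each other's transcripts, so they may not be independent. In no gene did all old males lie above all young males (0.317% of all genes), or all below (0.374%). In bulk tissue, fewer cells of a type and less RNA per cell cannot be told apart.

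In females the list lay near 0. Of the 62 genes 35 had a higher mean in old females (46.3% of all genes did), and the median log2 change was 0.02, against -0.02 over all genes, turning to -0.08 with the actin ratio as a covariate. With each array centred on its median it was -0.09, and that over all genes was -0.09 as well. On the deposited scale both were -0.01. No probe set of the 84 passed limma's threshold (0% of all probe sets did), and 0 had an unadjusted limma p below 0.05 (1.14% of all genes were higher at that level and 1.73% lower). The groups overlapped in all 62 genes (0.202% of all genes lay wholly above and 0.158% wholly below). Averaged over the sexes, 51 of the 62 were higher (46.6%) with a median of 0.12, and again 0 of 84 passed (0%), with 1 gene higher at an unadjusted limma p below 0.05 (1.92%) and 0 lower (2.78%). The age effect in males minus that in females was positive for 52 of 62 genes (52.5%) with a median of 0.24 (0.44 with the actin ratio as a covariate). It passed for 0 of 84 probe sets (0%), and 2 genes were positive at an unadjusted limma p below 0.05 (1.01%) and 0 negative (0.778%).

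Leaving out 1 library brought the male median close to 0. Each gene's deviation from its own mean over the 21 samples was averaged over the 62 genes. Old male 4 stood at 1.18, while the other 5 old males ran from -0.14 to 0.06. Young male 1 stood at 0.47, while the other young males read -0.24, -0.16, -0.21 and -0.36. Old females 1, 2, 3, 5 and 6 read -0.13, -0.29, 0.13, 0.21 and -0.15, and young females 1, 2, 3, 5 and 6 read -0.25, 0.37, -0.27, -0.27 and 0.21. Each male group thus held 1 high sample, both of them divergent, and the female groups were mixed through each other. Without old male 4 the male median was 0.02 and 35 of 62 genes had a higher mean in old males (47.8% of all genes). Without young male 1 it was 0.40, with 57 of 62 higher (46.9%). Averaged over the sexes, 34 of 62 were higher without old male 4 (46.8%, median 0.02) and 52 without young male 1 (46.5%, median 0.20). The age effect in males minus that in females was positive for 31 of 62 without old male 4 (52.6%, median -0.01). It was positive for 58 without young male 1 (51.0%, median 0.41).

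**Figure D1:**
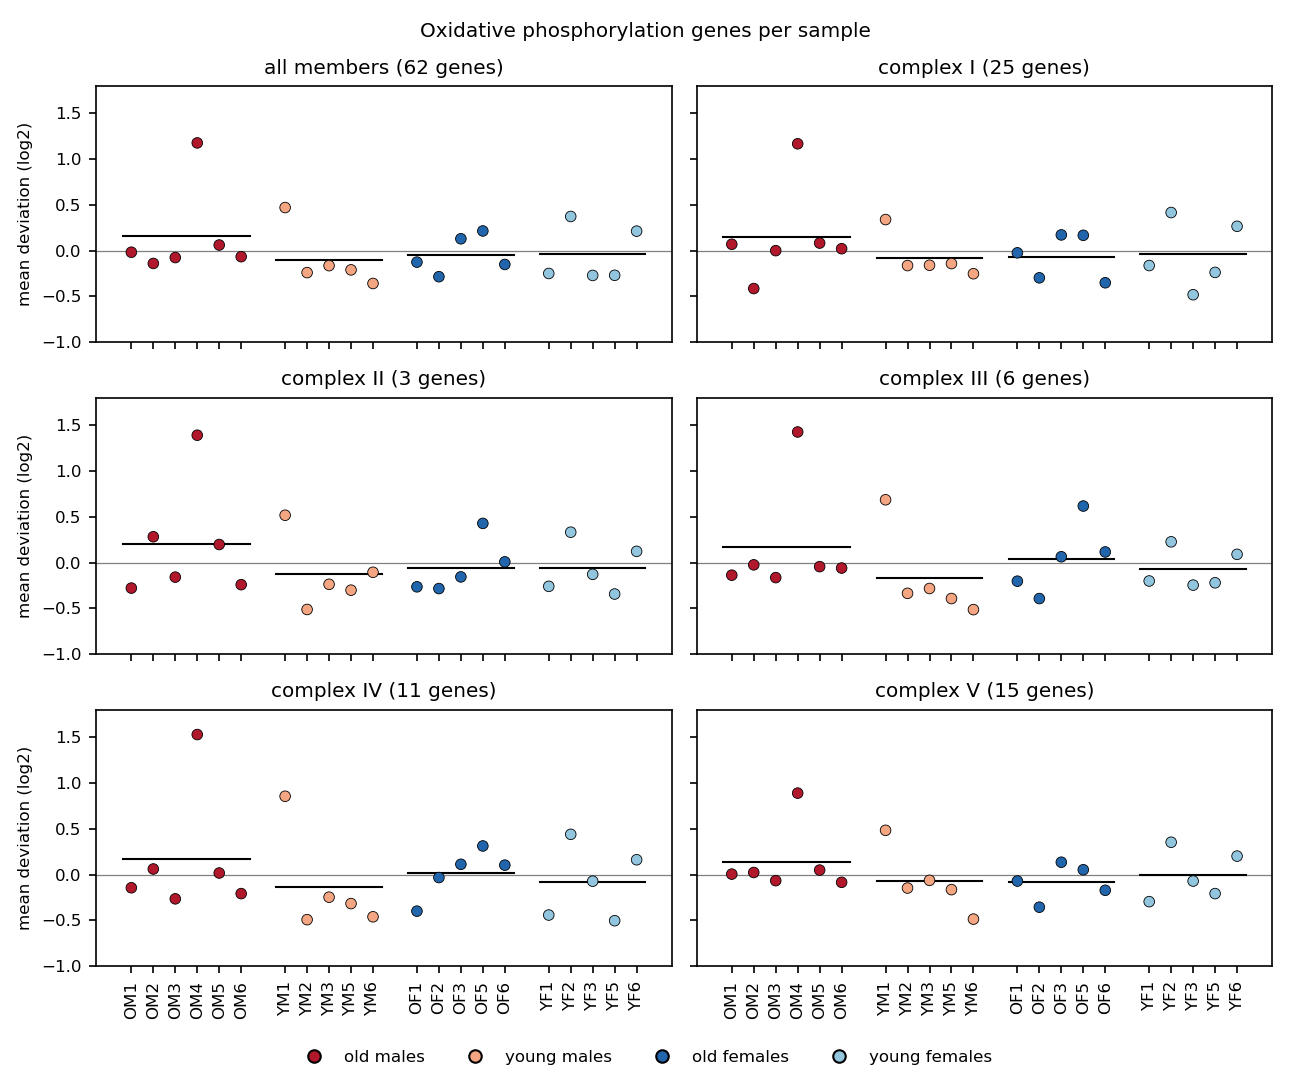
Mean deviation (log2) of the tested genes of each complex from their own mean over 21 samples, 1 point a sample, with the group mean as a bar; OM, YM, OF and YF are old males, young males, old females and young females with their replicate number. OM4 is the highest point in each of the 6 panels (1.18 over all 62 genes), and YM1 the second highest in all of them (0.47 over all 62 genes) but that of complex I, where YF2 reads 0.42 and YM1 0.34.

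Complex I takes electrons from NADH in a matrix arm and pumps protons in a membrane arm. Of its 25 tested genes 20 had a higher mean in old males (median 0.26) and 13 in old females (median 0.02). Without old male 4 the male median was 0.004, and without old female 3 the female median was -0.05. In the matrix arm the counts were 11 of 11 genes in old males (median 0.40) and 6 of 11 in old females (median 0.05). In the 14 membrane-arm genes the counts were 9 in old males (median 0.11) and 7 in old females (median -0.02). In mean deviation old male 4 read 1.44 in the matrix arm and 0.95 in the membrane arm, and old male 2 -0.10 and -0.66. The remaining old males ran from -0.09 to 0.05 and from 0.02 to 0.15. Young male 1 read 0.32 and 0.36, and the other young males ran from -0.47 to -0.16 and from -0.13 to -0.07. The difference between the arms was not tested.

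NDUFS6, a zinc-binding subunit of the matrix arm, had the smallest p of complex I in males. Old males ran from 9.10 over a median of 9.37 to 9.90, against 9.62, 8.79, 8.98, 8.95 and 8.53 in young males 1, 2, 3, 5 and 6. All old males lay above 4 of the 5 young males, and young male 1 lay within their range. The log2 change was 0.46 ± 0.24 (SE; limma unadjusted p = 0.065). Old females read 9.09, 9.65, 9.69, 9.30 and 10.14, against 9.16, 9.12, 9.92, 8.75 and 9.37 in young females, which overlap, with a change of 0.31 ± 0.25. Averaged over the sexes NDUFS6 was 0.38 ± 0.17 higher, the single gene of the list with an unadjusted limma p below 0.05 in that average (limma unadjusted p = 0.036, limma adjusted p = 0.984).

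NDUFV2, an iron-sulfur subunit of the NADH-binding module, ran from 10.78 over a median of 10.99 to 12.31 in old males, against 10.92, 10.79, 10.78, 10.74 and 10.82 in young males. Old male 2 lay among the young males, the other old males lay above them, and old male 4 was the highest of the males by more than 1 log2 unit. The log2 change was 0.39 ± 0.23 in males and -0.02 ± 0.24 in females. NDUFA2, an accessory subunit, had a log2 change of 0.44 ± 0.29 in males and 0.25 ± 0.31 in females.

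NDUFA9 and NDUFA7 had changes of opposite sign in the sexes, which did not pass. NDUFA9, a subunit near the ubiquinone site, which was singled out after its values were seen, read 8.15 to 10.24 with a median of 8.75 in old males, against 9.29, 8.39, 7.96, 8.32 and 8.15 in young males. In females it read 8.46, 6.70, 8.43, 8.78 and 8.78 in old animals, against 8.52, 9.18, 8.31, 8.49 and 9.06 in young ones. Old female 2, a divergent sample, is the lowest of all 21. The log2 changes were 0.51 ± 0.37 in males and -0.48 ± 0.39 in females, and their difference of 0.997 ± 0.54 had a limma unadjusted p of 0.077. NDUFA7, an accessory subunit, had a log2 change of 0.71 ± 0.63 in males and -0.70 ± 0.66 in females. Its lowest samples, from 5.56 to 6.16, were old females 6 and 2, young female 3 and young male 6, and 3 of these 4 are divergent.

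In the membrane arm, NDUFA3 had a lower mean in old females. It read 8.72, 7.24, 9.47, 8.97 and 7.78 in old females, against 9.02, 9.69, 8.87, 8.66 and 9.21 in young females, a change of -0.65 ± 0.37, with the divergent old females 2 and 6 lowest. In males the change was 0.39 ± 0.36. NDUFB11, an accessory subunit, had a log2 change of 0.37 ± 0.22 in females and -0.09 ± 0.21 in males, and NDUFB2, another, of 0.34 ± 0.22 in females and -0.002 ± 0.21 in males. NDUFB4 had the lowest change of the list in males, -0.19 ± 0.30, and NDUFB1, the brightest complex I member, read 0.11 ± 0.24 in males and 0.02 ± 0.25 in females. The probe sets of NDUFB8, named after its values were seen, disagreed: their changes in males ran from -0.49 to 0.56, and the dimmer of them with the change of -0.49 had an unadjusted limma p of 0.029. On that probe set the old males reached at most 8.31 and the young males at least 8.36, so the groups did not overlap. It is the single one of the 84 tested member probe sets of which this holds in either sex. Of all tested genes, 0.374% had all old males below all young males and 0.317% all above. In females these shares were 0.158% and 0.202%.

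**Figure D2:**
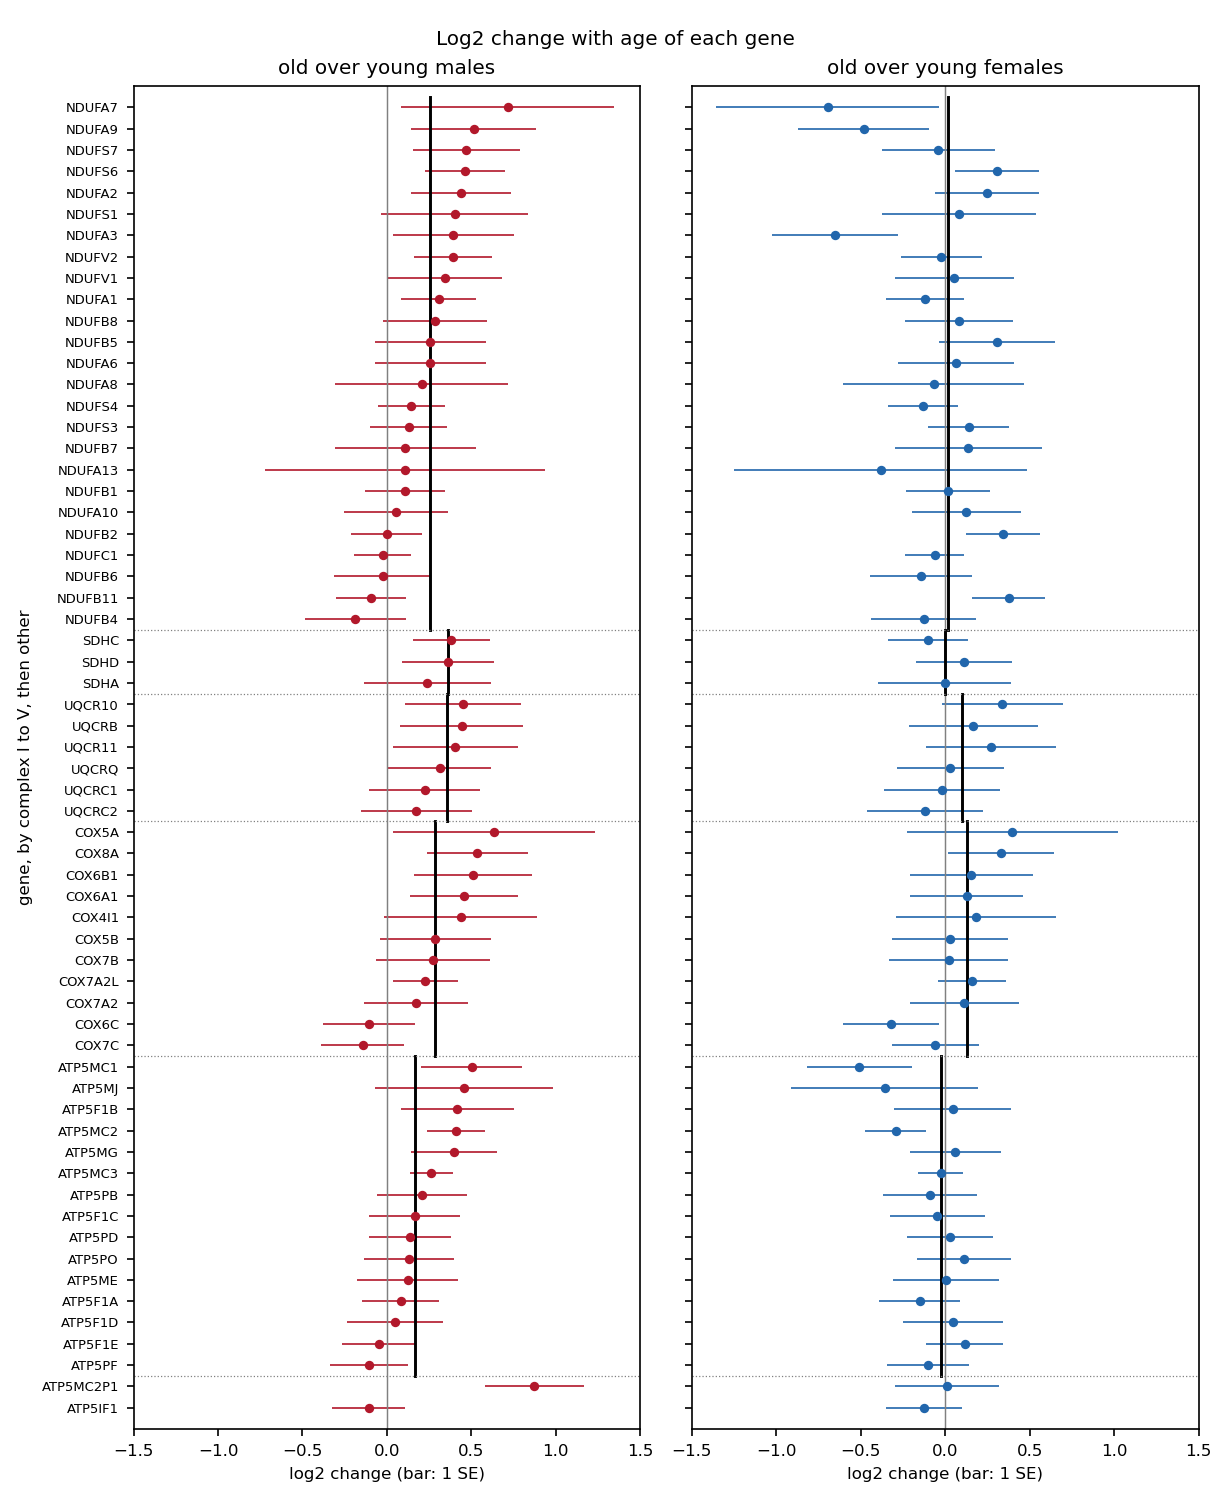
Log2 change of old over young in males (left) and females (right) for each of the 62 tested genes, with 1 standard error as a bar; genes run by complex, and black lines mark each complex's median. In males all complex medians lie right of 0, between 0.16 and 0.36, and in females they lie between -0.03 and 0.13.

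Complex II, succinate dehydrogenase, links the citric acid cycle to the chain, and its 3 measured subunits had higher means in old males, with a median of 0.36, which was 0.19 without old male 4. SDHA, the flavoprotein that oxidises succinate, ran from 9.61 over a median of 9.84 to 12.18 in old males, against 10.87, 9.93, 9.98, 9.55 and 9.74 in young males. Old male 4 was the highest and the other old males overlapped with the young ones, with a log2 change of 0.24 ± 0.38. SDHC and SDHD, which anchor the enzyme in the membrane, had log2 changes of 0.38 ± 0.23 and 0.36 ± 0.27 in males. In females the log2 changes of the 3 genes were -0.004 ± 0.39, -0.10 ± 0.24 and 0.11 ± 0.28. The 4 tested SDHC probe sets all had a higher mean in old males, by 0.31 to 0.73.

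Complex III hands electrons from ubiquinol to cytochrome c. Its counts of higher means were 6 of 6 genes in old males (median 0.36) and 4 of 6 in old females (median 0.10). The male median was 0.11 without old male 4 and 0.56 without young male 1, and the female median was -0.03 without old female 5. UQCR11 is a small subunit of the complex. In old males it ran from 8.44 over a median of 8.61 to 10.15, against 10.14, 8.27, 7.80, 7.55 and 8.41 in young males. All 6 old males lay above 4 of the 5 young males, and young male 1 was as high as old male 4. The log2 change was 0.41 ± 0.37 with all samples. In females it read 8.51, 8.91, 8.70, 8.97 and 8.36 in old animals, against 8.41, 8.01, 9.08, 8.37 and 8.23 in young ones, a change of 0.27 ± 0.39, and the divergent young female 3 was the highest of both groups. UQCR10 and UQCRB, other small subunits, had log2 changes of 0.45 ± 0.34 and 0.44 ± 0.37 in males and of 0.34 ± 0.36 and 0.17 ± 0.38 in females. The core protein UQCRC1, the brightest complex III member, had a log2 change of 0.22 ± 0.33 in males and -0.02 ± 0.34 in females.

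Complex IV, cytochrome c oxidase, had a higher mean in old animals for 9 of 11 genes in each sex, with medians of 0.29 in males and 0.13 in females. The male median was 0.03 without old male 4, 0.59 without young male 1 and 0.43 with the actin ratio as a covariate. The female median was 0.004 without young female 5 and -0.14 with that covariate. COX5A, a structural subunit, had the highest log2 change of the list in females (0.40 ± 0.62) and in the average of the sexes (0.51 ± 0.43). It ran from 9.81 over a median of 10.51 to 13.45 in old males, against 12.29, 9.78, 9.94, 9.78 and 9.57 in young males. Old females read 9.70, 10.65, 10.56, 11.98 and 11.48, against 9.64, 11.62, 10.22, 9.68 and 11.23 in young females. The groups overlap in both sexes, with high samples in all 4 groups: old male 4, young male 1, old females 5 and 6 and young females 2 and 6. With an SE of 0.60 the male change of 0.63 is not distinguishable from 0.

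In further complex IV genes old male 4 was again the highest sample but for COX7A2L. COX8A, a small subunit, had a log2 change of 0.53 ± 0.30 in males (limma unadjusted p = 0.089) and 0.33 ± 0.31 in females. COX6B1 and COX6A1, further small subunits, had log2 changes of 0.51 ± 0.35 and 0.46 ± 0.32 in males, against 0.16 ± 0.36 and 0.13 ± 0.33 in females. COX4I1, the widely expressed form of the largest nuclear subunit, read 11.31 to 14.13 with a median of 11.81 in old males, against 13.38, 11.31, 11.46, 11.13 and 11.08 in young males. Old male 4 and young male 1 were far above the rest, and the log2 change was 0.44 ± 0.45. COX7B, the brightest complex IV member, had a log2 change of 0.27 ± 0.34 in males, COX7A2 one of 0.17 ± 0.31, and COX7A2L, which takes part in joining complexes III and IV, one of 0.23 ± 0.19. COX6C had the lowest change in the average of the sexes, -0.21 ± 0.20.

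**Figure D3:**
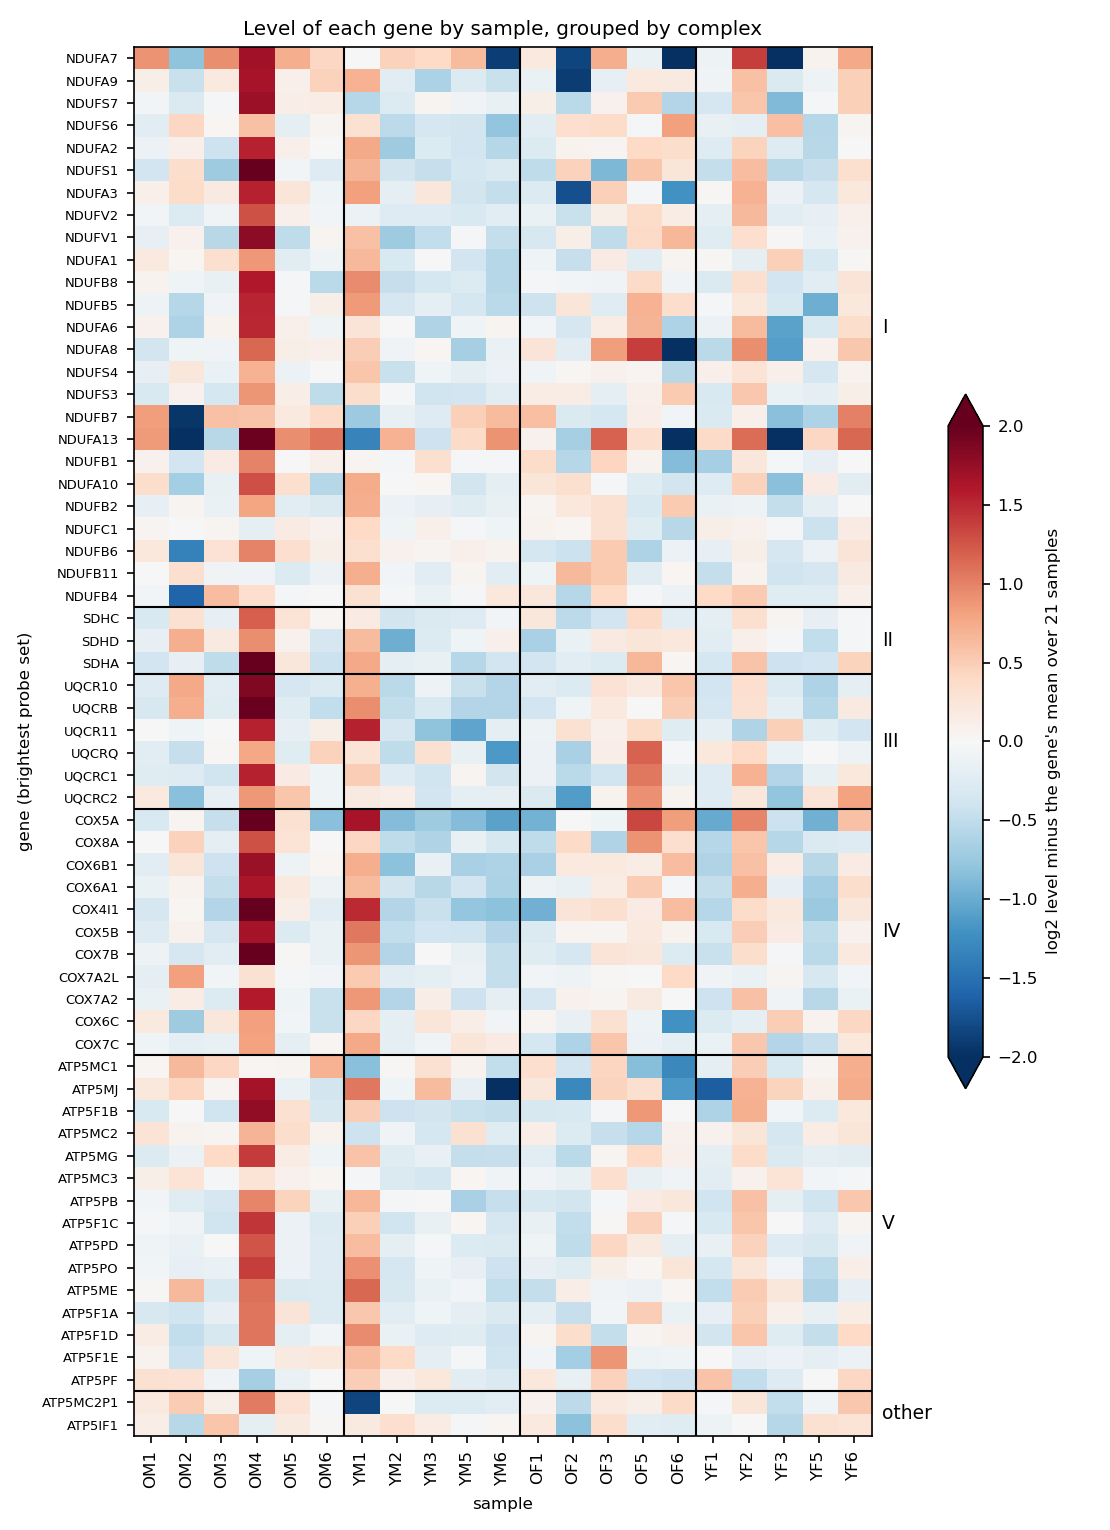
Level of each of the 62 genes minus its mean over 21 samples (log2, red high and blue low, colours end at 2 either way), genes in rows by complex and samples in columns, with OM, YM, OF and YF as old males, young males, old females and young females. The OM4 column is red for nearly all genes of complexes I to IV, and of complex V it is pale or blue for ATP5MC1, ATP5MC3, ATP5F1E and ATP5PF.

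Complex V had 13 of 15 genes with a higher mean in old males (median 0.16) and 7 of 15 in old females (median -0.03). The male median was 0.02 without old male 4, and the female median ran from -0.11 to 0.09 when 1 sample was left out. The c ring is the rotor in the membrane, and its c subunit is encoded by 3 genes, ATP5MC1, ATP5MC2 and ATP5MC3, that share the mature protein. ATP5MC2 ran from 12.02 over a median of 12.14 to 12.65 in old males, against 11.55, 11.89, 11.61, 12.28 and 11.72 in young males. All old males lay above 4 of the 5 young males, and young male 5 lay among the old ones. The change was 0.41 ± 0.17 (limma unadjusted p = 0.028, adjusted p = 0.99991). In females it read 12.10, 11.69, 11.51, 11.40 and 12.05 in old animals, against 12.05, 12.21, 11.62, 12.12 and 12.21 in young ones, a change of -0.29 ± 0.18. Old females 2, 3 and 5 and young female 3 were the low ones.

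ATP5MC1 also had changes of opposite sign. Old males read 8.88 to 9.53 with a median of 9.08, against 8.01, 8.86, 9.15, 8.91 and 8.34 in young males, with a change of 0.50 ± 0.30. Old females read 9.18, 8.46, 9.26, 7.98 and 7.54, against 8.64, 9.33, 8.54, 8.89 and 9.56 in young females, with a change of -0.51 ± 0.31. The groups overlap in both sexes, and old females 5 and 6 and young male 1 are the lowest samples. The age effect in males exceeded that in females by 0.70 ± 0.25 for ATP5MC2 (limma unadjusted p = 0.011) and by 1.01 ± 0.43 for ATP5MC1 (limma unadjusted p = 0.029). Both had a limma adjusted p of 0.999937 and did not pass.

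ATP5MC3, the third c-subunit gene, ran from 12.17 over a median of 12.31 to 12.48 in old males, against 12.19, 11.92, 11.86, 12.25 and 12.13 in young males. Its change was 0.26 ± 0.13 in males (limma unadjusted p = 0.050) and -0.03 ± 0.13 in females. Old male 4 was not set apart in ATP5MC1 or ATP5MC3. ATP5MC2P1, a pseudogene whose sequence derives from ATP5MC2, had the highest change of the list in males, 0.87 ± 0.29 (limma unadjusted p = 0.0072, adjusted p = 0.99991). It ran from 8.06 over a median of 8.33 to 9.12 in old males, against 6.25, 8.09, 7.81, 7.80 and 7.87 in young males. Young male 1 was the lowest by far. Probes for a pseudogene can read transcripts of its source gene and the reverse, so both readings are uncertain.

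**Figure D4:**
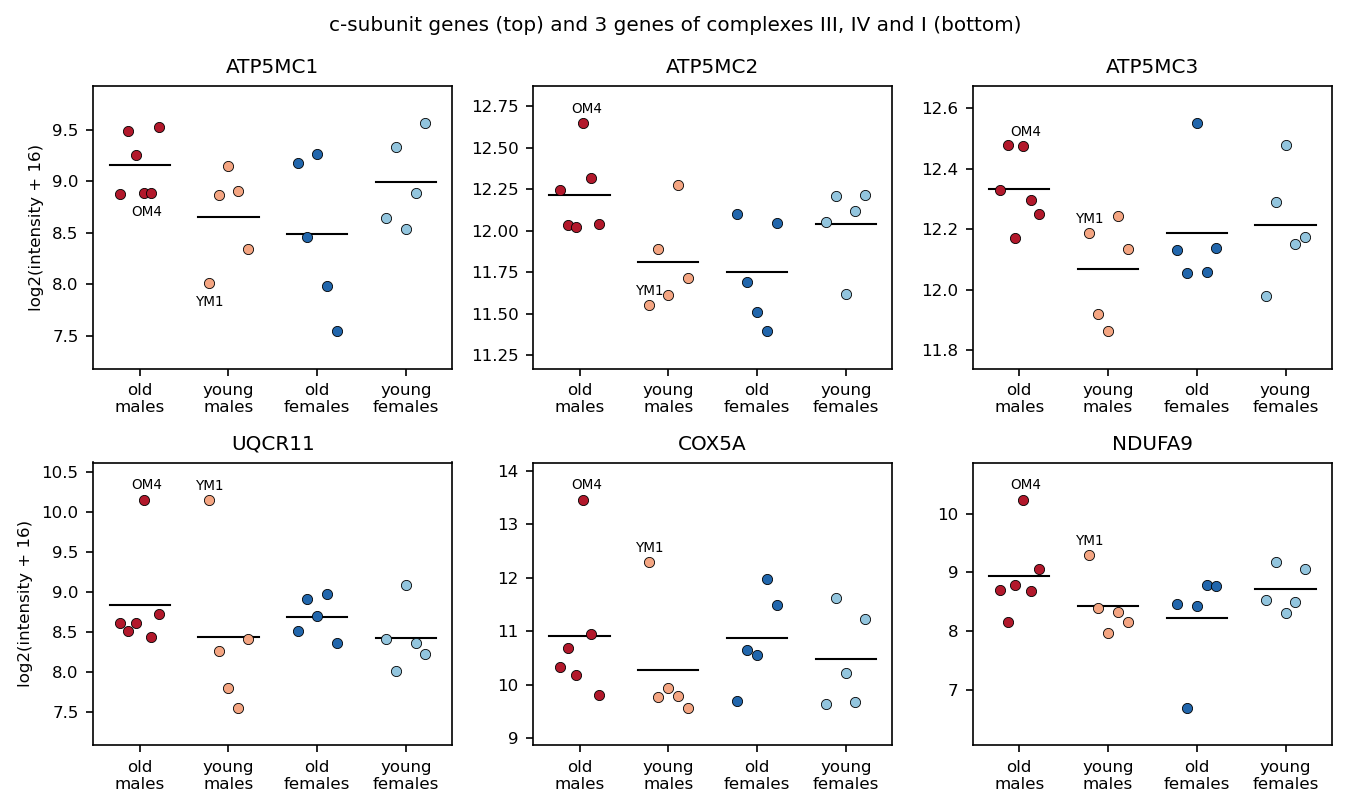
Level, log2(intensity + 16), of the 3 c-subunit genes (top) and of UQCR11, COX5A and NDUFA9 (bottom), 1 point a sample with the group mean as a bar; OM4 and YM1 are old male 4 and young male 1. ATP5MC1 and ATP5MC2 means lie above the young mean in old males and below it in old females, while OM4 and YM1 top their groups in the bottom row.

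No gene of the head or the stalks of the ATP synthase had an unadjusted limma p below 0.05. ATP5F1A, the alpha subunit of the catalytic head and the brightest complex V member, had a log2 change of 0.08 ± 0.23 in males and -0.15 ± 0.24 in females. ATP5F1B, the catalytic beta subunit, and ATP5PF were likewise named after their values were seen. ATP5F1B had one of 0.42 ± 0.33 in males and 0.04 ± 0.35 in females. ATP5MJ, a small membrane subunit, had one of 0.46 ± 0.53 in males and -0.36 ± 0.55 in females, with low samples in several groups. ATP5PF, of the peripheral stalk, had one of -0.11 ± 0.23 in males. ATP5IF1, the protein that inhibits the ATP synthase when it runs backwards, had one of -0.11 ± 0.22 in males and -0.13 ± 0.23 in females, with 10.10 to 11.21 in old males and 10.63 to 10.99 in young males.

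Old male 4 was the highest of the 21 samples for 47 of the 62 genes, or 75.8%, where it was the highest for 12.2% of all tested genes. Against the median of the 19 samples other than old male 4 and young male 1, it was higher for 56 of 62 (49.1% of all genes), by a median of 1.37, where the median over all genes was -0.02. The median excess was 1.28 in complex I, 1.35 in complex II, 1.75 in complex III, 1.77 in complex IV and 1.24 in complex V. COX5A led with 3.23, followed by NDUFS1, the largest iron-sulfur subunit of complex I, with 2.87, COX4I1 with 2.45, SDHA with 2.34 and UQCRB with 2.23. The excess was not uniform. ATP5PF lay 0.67 below that median, and the c-ring genes lay at 0.60 (ATP5MC2), 0.30 (ATP5MC3) and -0.01 (ATP5MC1). Young male 1 was higher than the same median for 55 of 62 genes (49.0% of all genes), by a median of 0.73, where that over all genes was -0.01, with 2.07 for COX5A and 1.71 each for COX4I1 and UQCR11. These genes were singled out for their size in these samples.

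Without the 6 divergent samples, 4 old males, 4 young males, 3 old females and 4 young females remained. In males 58 of 62 genes then had a higher mean in old animals (50.6% of all genes did), with a median of 0.20. In 7 of the 62 all old males lay above all young males (3.18% of all genes), and in 0 all below (2.39%). The 7 were UQCR11, NDUFA9, NDUFS6, NDUFB5, NDUFV2, COX5B and NDUFB6. UQCR11 had a log2 change of 0.59 ± 0.20 and NDUFA9 one of 0.60 ± 0.19 in this fit. Both missed the threshold, with limma adjusted p-values of 0.684 and 0.572. At an unadjusted limma p below 0.05, 5 genes were higher (3.46%) and 0 lower (2.41%). In females 40 of 62 were higher (49%), with a median of 0.06, and 2 genes, UQCR11 and COX7A2L, had all old above all young females (1.67%), and 0 had all below (2%). UQCR11 had a log2 change of 0.47 ± 0.21 in females. At an unadjusted limma p below 0.05, 2 genes were higher in old females (2.09%) and 1 lower (3.13%), and the smallest limma adjusted p was 0.918.

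Leaving out young male 1 alone, the sample with the XIST signal, gave 12 of 62 genes higher in old males at an unadjusted limma p below 0.05 (2.79% of all genes) and 0 lower (2.51%). The 12 were UQCR11, NDUFS6, NDUFA2, NDUFA1, ATP5MC2P1, ATP5MG, COX8A, COX6B1, ATP5MC3, COX6A1, COX4I1 and COX7A2L. None passed, with limma adjusted p-values of 0.857 to 0.908. UQCR11 had a log2 change of 0.83 ± 0.30, and its lowest old male, at 8.44, lay just above the highest remaining young male, at 8.41. In 3 of the 62 genes all old males lay above all remaining young males (1.08% of all genes), and in 0 all below (1.11%). Leaving out old male 4 alone gave 1 gene higher (1.44%) and 0 lower (1.33%). The count of genes with a low p in males thus ran from 1 to 12 with which of these 2 samples was left out.

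Companion lists of mitochondrial energy metabolism also had positive medians in males. Of 6 electron carriers outside the name rule, which include cytochrome c (CYCS), cytochrome c1 of complex III (CYC1), the acyl carrier protein NDUFAB1 and the flavoproteins that feed electrons from fatty acid oxidation (ETFA, ETFB, ETFDH), higher means were measured for 6 in old males (median 0.34) and for 2 in old females (median -0.07). Their mean deviation was 2.15 in old male 4 and 0.77 in young male 1. The other old males ran from -0.37 to 0.41, and the other young males from -0.44 to -0.19. ETFB, with the smallest p of these carriers in males, had a log2 change of 0.70 ± 0.49 in males and -0.35 ± 0.51 in females. Of 11 citric acid cycle enzymes 10 had a higher mean in old males (median 0.23), with 1.45 in old male 4 and 0.25 in young male 1. For these enzymes the other old males ran from -0.36 to 0.10, and the other young males from -0.26 to -0.11. In old females 7 of the 11 were higher (median 0.07). Citrate synthase, CS, which opens the cycle, had a log2 change of 0.35 ± 0.29 in males and 0.18 ± 0.30 in females. Of 19 listed assembly factors, which build the complexes, 7 were tested. Of these 6 were higher in old males (median 0.12), but old male 4 read 0.04. In old females 5 of the 7 were higher (median 0.12). SURF1, needed to build complex IV, had a log2 change of 0.44 ± 0.24 in males and 0.39 ± 0.25 in females. Of 11 listed regulators of mitochondrial biogenesis 5 were tested. Of these 3 were higher in old males (median 0.03) and 2 in old females (median -0.02), and old male 4 read 0.35. Among the regulators too dim on average to be tested, PPARGC1A read 10.37 in old male 4, against 5.30 to 9.29 in the other samples. POLRMT read 5.37 in old male 4, the lowest of all samples. Of 10 carriers and pores of the mitochondrial membranes 9 were higher in old males (median 0.09) and 2 in old females (median -0.06). Old male 4 read 0.79 and the other old males -0.13 to 0.04, against 0.22 in young male 1 and -0.16 to -0.08 in the other young males. Across these lists 0 genes passed limma's threshold in either sex. In males 0 had an unadjusted limma p below 0.05, where 1.61% of all genes were higher and 1.99% lower. In females 2 assembly factors were higher at that level, where 1.14% of all genes were higher and 1.73% lower. They were NDUFAF1 with a log2 change of 0.54 ± 0.20 (limma unadjusted p = 0.012) and COX15 with 0.61 ± 0.27 (limma unadjusted p = 0.039). SURF1 had a limma unadjusted p of 0.025 in the average of the sexes.

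Adipocyte markers also differed between the samples. Of 10 white adipocyte markers 7 were tested, and these 7 had higher means in old males (median 1.53, 3 at an unadjusted limma p below 0.05, where 1.61% of all genes were, and 0 past the threshold). In old females 4 of 7 had a higher mean (median 0.10, 0 at that p). Their summed intensity over the 10 ran from 3509 to 47806 in old males, against 2221 to 50847 in young males, and from 3153 to 39783 in old females, against 5482 to 29111 in young females. Old male 4, at 47806, and young male 1, at 50847, were the highest of their groups. In mean deviation old male 4 read 2.02, old male 2 read 1.90 and young male 1 read 1.92. ADIPOQ, PLIN1 and LEP were too dim to be tested. The lowest intensity of the white adipocyte markers was 5.27, where array medians ran from 144.2 to 264.1. LEP read 4.41 to 5.70 over all samples, below the cut of 7.60 for testing.

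Of 7 brown adipocyte markers 5 were measured and 4 tested, and they summed to 932 to 13477 in old males, against 976 to 4246 in young males, and to 1040 to 7134 in old females, against 955 to 14470 in young females. UCP1, the uncoupling protein that defines brown fat, read 12.23 in old male 4, 11.24 in old male 5, 11.99 in old female 5 and 11.53 in old female 6, against 13.28 in young female 2 and 10.75 in young female 6. In all other samples it was between 5.26 and 8.56. Young male 1 read 6.28. For CIDEA, a lipid droplet protein of brown fat, old male 4 read 12.47 and young male 1 read 11.37, the highest and the third highest of all samples. For COX7A1, the muscle and brown fat form of a complex IV subunit that the name rule left out, they read 10.45 and 9.93, the highest and the second highest, and old female 6 was the lowest at 6.75. The means were higher for 3 of the 4 tested markers in old males (median 1.02) and for 2 of the 4 in old females (median -0.12). Endothelial markers were also highest in old male 4 (summed intensity 10294, against a median of 3760 in old males and 3524 in young males). Smooth muscle markers summed to 144161 in old male 4 and 136360 in young male 1, against 124338 to 188672 over old males and 136360 to 157761 over young males, so young male 1 was the lowest young male. In females these markers summed to 51006 to 166303 in old and 76589 to 172123 in young samples. In mean deviation of these markers old male 4 (-0.22) and young male 1 (-0.07) were each the lowest of their group. The lowest of all samples were the divergent old female 6 (-1.73) and young female 3 (-1.21). The list split in old male 4, where MYH11 (15.19) and MYLK (15.00) were the highest of all samples. There SMTN (10.83), CNN1 (11.51), LMOD1 (12.55), MYL9 (12.63) and TAGLN (14.87) were the lowest of the old males. ACTA2 (14.74) lay within the range of the other old males. The median log2 change of the 8 smooth muscle markers was -0.09 in males and -0.38 in females, where 0 of 8 had a higher mean in old animals. Endothelial markers had higher means in old males for 6 of 6 (median 0.16) and in old females for 2 of 6 (median -0.21). TEK, an endothelial receptor, had a log2 change of 1.24 ± 0.44 in males (limma unadjusted p = 0.010). Young males 1 and 6 read 5.14 and 5.85, and the other young males 7.79 to 7.94, against 7.75 to 9.21 in old males. VWF, a clotting protein of endothelium, had a log2 change of -1.48 ± 0.68 in females (limma unadjusted p = 0.041). The divergent old females 2 and 6 read 7.08 and 6.53, and the other old females 9.455 to 10.75, against 9.08 to 11.19 in young females. Of the other tested markers, 1 of 4 for macrophages, 2 of 3 for cardiac and skeletal muscle and 1 of 2 for red blood cells had a higher mean in old males, and 3 of 4, 1 of 3 and 2 of 2 did in old females. The part of these cell types in the differences of the respiratory chain genes was not tested.

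**Figure D5:**
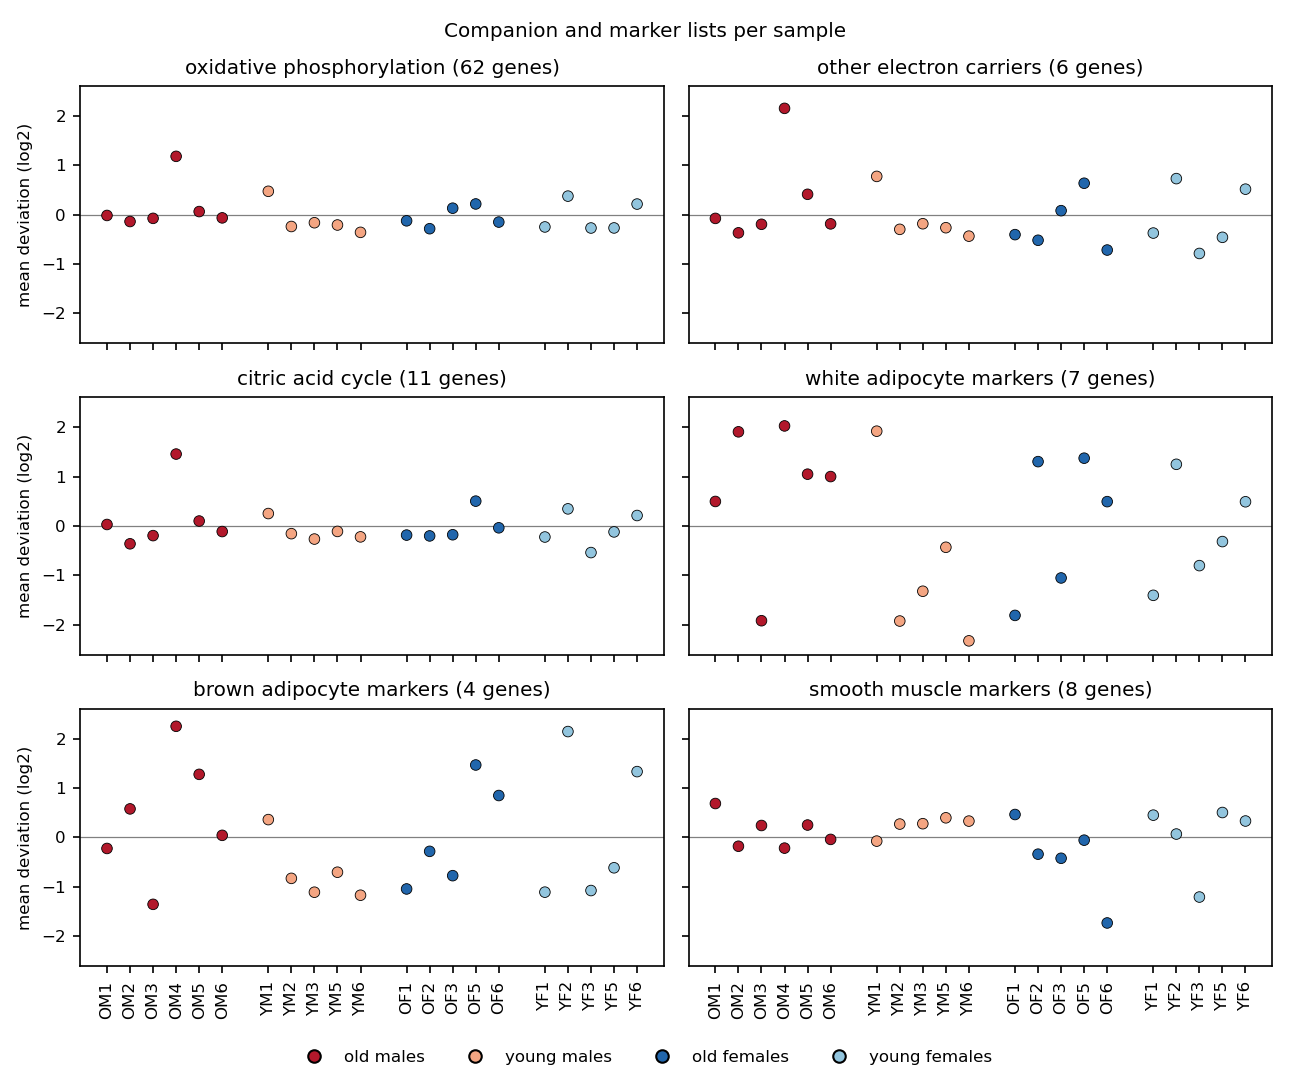
Mean deviation (log2) of each list's tested genes from their own mean over 21 samples, 1 point a sample, with OM, YM, OF and YF as old males, young males, old females and young females. OM4 is the top sample for oxidative phosphorylation, the other electron carriers (2.15), the citric acid cycle (1.45) and both adipocyte lists (2.02 and 2.25), while YM1 is high for white (1.92) and less so for brown adipocyte markers (0.36).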

How the data were processed

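RNA of 24 aorta samples was measured on single-colour human expression arrays. The deposited values are linear intensities for each probe set, and the authors had scaled each array to 1 common level (a trimmed mean of 500.1 to 500.2), as the deposited values show. The sources used here do not give how probes were summarised. Probe sets with 1 symbol in the platform annotation numbered 19064, while 1043 had several and 2108 had none. Intensities were converted to log2(intensity + 16) and quantile normalised, near-identical arrays (correlation of deviations over 0.7) were averaged, 62 control probe sets were left out, and the 11108 probe sets at or above the median mean were tested. The pseudocount understates the change of dim genes. A mean per group was fitted with limma 3.58.1 in R 4.3.3, with an intensity trend and Benjamini-Hochberg adjustment over all tested probe sets at 0.05. The fit was also run on simulated data with independent noise for each probe set. These held no divergent samples and no correlation between genes, so the run does not cover such effects. Lists are described by counts and medians, beside 6943 genes. Of the member probe sets, 19 have the suffix _x and 34 the suffix _s, which mark probes that can read other or related transcripts. Of 14 genes with several tested probe sets, 8 agreed in sign in males and 7 in females. Named genes were, for complexes I, III, IV and V, the 3 with the smallest p in each sex and the brightest, all of complex II, paralogue sets and the extremes of each contrast. Members and lists were chosen with earlier results of these data known. The number of arrays limits the precision.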

Additional observations from a re-analysis of the deposited data

Results flagged for a closer look

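In 152 groups of values, the sample at either end was compared with its nearest neighbour by Dixon's ratio, and 41 stood apart. Chance alone flags about 1 group in 20, and the genes are not independent of each other. Most of these are a high old male 4 or a high young male 1.

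Old male 4 stood above the other old males in the mean deviation over all members (1.18), over complex I (1.17), complex II (1.39), complex III (1.43), complex IV (1.53) and complex V (0.89). Its level also stood apart for COX7B (14.47), COX4I1 (14.13), COX5A (13.45), COX6A1 (13.24) and NDUFA2 (13.21). The same held for COX7A2 (12.65), UQCRC1 (12.55), COX6B1 (12.51), NDUFV2 (12.31), SDHA (12.18), NDUFB2 (12.07), NDUFA3 (10.54) and UQCR11 (10.15).

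Young male 1 stood above the other young males in the mean deviation over all members (0.47), complex I (0.34), complex III (0.69) and complex IV (0.86). Its level stood apart for ATP5F1A (13.98), COX4I1 (13.38), COX5A (12.29), COX6A1 (12.24), NDUFB2 (12.02), UQCRB (11.74) and NDUFB11 (9.94). It stood below the other young males for the pseudogene ATP5MC2P1 (6.25).

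Other samples high in their group were old female 5 for UQCRC1 (12.05), old female 6 for COX7A2L (10.44), old female 3 for ATP5MC3 (12.55), young female 2 for COX8A (9.99) and young male 3 for NDUFB1 (13.11). Low in their group were old male 2 for NDUFB4 (6.58), old female 1 for COX4I1 (10.94), young male 6 for NDUFA7 (6.11), young female 3 for ATP5MC2 (11.62) and young female 1 for ATP5MJ (8.31).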

How the results depend on the processing

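No member passed the threshold in any of the 4 age comparisons under any alternative run (other pseudocounts, filters, scalings, array weights, 24 arrays, an actin-ratio covariate, every probe set, a replicate block and each sample left out). Leaving out 1 sample at a time gave medians of 0.02 to 0.40 in males, -0.03 to 0.15 in females, 0.02 to 0.20 for the average and -0.01 to 0.41 for the interaction. The lowest male, average and interaction values came without old male 4, and the highest without young male 1. With the actin ratio as a covariate the male median was 0.32 and the interaction 0.44. With the replicate block the male median was 0.02 and the interaction -0.01, the values without old male 4, because after averaging no other sample carries its number. Same-numbered old and young samples correlated at -0.42 to 0.26 in males and -0.007 to 0.51 in females. Their median was 0.005 in males (0.067 for other numbers) and 0.068 in females (-0.03). Of 5 old samples in each sex, 1 male and 3 females correlated best with their own number. With so few samples this cannot settle whether the numbers pair them. Of 4196 values of named genes, 234 had the other sign under an alternative and 0 passed the threshold. Without the divergent samples 5 gene values moved by more than the spread between replicates, the ATP5MC2P1 change in males (0.34) and its interaction (0.38), the NDUFA3 interaction (0.41), and NDUFB1 in females (0.44) and its interaction (-0.41). The cause was not tested.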
